A study of Homo sapiens with 6 samples.

Results

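The genes for mitochondrial ribosomal proteins were followed in U251 cells, an established human glioblastoma line. Members were the protein-coding genes whose symbol is MRPL or MRPS followed by digits and at most 1 letter. Among 42307 deposited genes, 78 met this rule, 49 with an MRPL symbol (large subunit) and 29 with an MRPS symbol (small subunit). RNA was sequenced from 3 libraries of cells given a STING overexpression plasmid (STING-OE) and 3 libraries of cells given a negative control plasmid (NC). Both groups carried the wild-type genotype by their labels, received 1 ug of plasmid per well and were transfected for 3 days. STING relays the signal of cytosolic DNA sensing to the interferon response, and the labels name no promoter, plasmid backbone, clone or selection for the cells. The labels do not say that replicates were separate cultures, so p-values measure the spread between these libraries, which may be technical.

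The mitochondrial ribosome, or mitoribosome, makes the few proteins encoded by mitochondrial DNA, all of them subunits of the respiratory chain and ATP synthase. Its rRNAs come from mitochondrial DNA, whereas all of its proteins are encoded in the nucleus, made in the cytosol and imported. Many of the proteins have a counterpart in bacterial ribosomes, and the others are specific to mitochondria.

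Promoters of 5 members, chosen as examples after their motifs and changes were seen, are shown: 4 hold a motif of a factor known for nuclear genes of mitochondrial proteins, and 1, that of MRPL48, does not. The sequences are from RefSeq (GRCh38.p14), each with 250 bases before and 50 after the annotated start, read on the gene's strand. Capitals mark matches on either strand to the core letters GCGCATGCG of NRF1, CCGGAAGT of GABPA or AAGATGGCG of YY1. MRPL32 (chr7:42932126-42932425, plus strand) has a YY1 match in reverse orientation, at -223 from the start. PSMA2 starts 191 bases before MRPL32 and is transcribed the other way, so this match lies past the start of PSMA2. MRPS18C (chr4:83455808-83456107, plus strand) has an NRF1 match. MRPL22 (chr5:154940823-154941122, plus strand) has an NRF1 match before the start and a YY1 match after it. MRPL46 (chr15:88467339-88467638, minus strand) has a YY1 match just after the start, and its window overlaps the start of MRPS11, which is transcribed the other way. MRPL48 (chr11:73787624-73787923, plus strand) has none of the 3 motifs.
MRPL32: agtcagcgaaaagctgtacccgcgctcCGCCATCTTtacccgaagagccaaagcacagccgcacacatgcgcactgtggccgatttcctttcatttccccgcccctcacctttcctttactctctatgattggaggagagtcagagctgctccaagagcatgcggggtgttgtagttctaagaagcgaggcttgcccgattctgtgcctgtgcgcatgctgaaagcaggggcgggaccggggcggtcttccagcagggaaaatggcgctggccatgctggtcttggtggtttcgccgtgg
MRPS18C: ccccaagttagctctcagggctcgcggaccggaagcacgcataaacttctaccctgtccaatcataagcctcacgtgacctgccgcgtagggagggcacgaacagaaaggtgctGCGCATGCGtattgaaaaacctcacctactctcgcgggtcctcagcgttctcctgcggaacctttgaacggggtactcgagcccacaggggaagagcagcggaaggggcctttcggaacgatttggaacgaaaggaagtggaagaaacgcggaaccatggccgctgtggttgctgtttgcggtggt
MRPL22: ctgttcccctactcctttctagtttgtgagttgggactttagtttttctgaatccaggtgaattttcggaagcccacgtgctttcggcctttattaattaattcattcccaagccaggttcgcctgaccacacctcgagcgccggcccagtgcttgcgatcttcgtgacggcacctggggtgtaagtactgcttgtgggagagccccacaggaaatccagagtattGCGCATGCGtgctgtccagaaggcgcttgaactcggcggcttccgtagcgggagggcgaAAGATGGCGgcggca
MRPL46: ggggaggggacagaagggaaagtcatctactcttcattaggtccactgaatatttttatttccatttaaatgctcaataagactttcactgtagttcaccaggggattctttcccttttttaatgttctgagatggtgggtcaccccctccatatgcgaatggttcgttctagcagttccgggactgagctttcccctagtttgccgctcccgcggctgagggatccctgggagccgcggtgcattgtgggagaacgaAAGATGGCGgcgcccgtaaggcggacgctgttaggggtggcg
MRPL48: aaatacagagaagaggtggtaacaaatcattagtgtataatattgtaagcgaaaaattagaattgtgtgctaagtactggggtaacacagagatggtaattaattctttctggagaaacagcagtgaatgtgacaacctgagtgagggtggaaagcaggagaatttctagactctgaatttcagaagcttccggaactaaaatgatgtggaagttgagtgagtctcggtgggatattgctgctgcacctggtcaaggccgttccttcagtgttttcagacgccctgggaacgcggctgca

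RefSeq promoters were matched for 69 of the 78 members and not for MRPL2, MRPL10, MRPL13, MRPL15, MRPL21, MRPL23, MRPL35, MRPS28 and MRPS36. The YY1 letters were in 13 of the 69 member promoters (18.8%), against 1.85% of all 27305 promoters of the same length. The GABPA letters were in 11 (15.9%), against 4.44% of all promoters. The NRF1 letters were in 3 member promoters (MRPL17, MRPL22 and MRPS18C; 4.35%), against 2.1% of all promoters. The SP1 letters GGGCGG were in 42 member promoters (60.9%, against 44.6%), and the NFY letters CCAAT were in 20 (29%, against 35.7%). These 2 short motifs are not marked in the sequences above. A match is a description of letters and shows no binding. The members with the YY1 letters had a median log2 fold change of 0.05 and those without them of 0.02. For the GABPA letters the medians were 0.04 with and 0.02 without them.

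Counts summed to between 75605739 and 76566375 in the STING-OE libraries and between 71498790 and 76158548 in the NC libraries. At this depth 3 counts correspond to 0.0392 to 0.042 CPM (counts scaled to library size with TMM factors), far below every member. STING1 itself had 56.3, 54.7 and 47.3 CPM in STING-OE libraries 1, 2 and 3, against 36.2, 37.1 and 31.2 CPM in NC libraries 1, 2 and 3. Its log2 fold change was 0.60 (SE 0.0777, edgeR adjusted p = 0.00221). All 8 glioma and astrocyte markers had log2 fold changes below 0, from -1.50 (S100B) to -0.02 (EGFR), with a median of -0.155. In 4 of them (50%) every STING-OE library was below every NC library, against 9.73% of all genes tested. S100B, 1 of these 4, had at most 0.331 CPM in any library. GFAP was the 1 marker called lower, with 21.5 ± 3.88 CPM against 39.1 ± 3.98 CPM in NC (SD, n = 3 each; edgeR adjusted p = 0.033). Of 6 markers of other cell types 5 passed the filter and MOG did not. PTPRC, of leukocytes, had 0.937, 2.47 and 3.08 CPM in STING-OE libraries and 2.12, 7.64 and 4.66 CPM in NC libraries, and the other 4 (CD3E, EPCAM, PECAM1 and RBFOX3) were at most 1.09 CPM in any library. The part of these markers in the members' values was not tested. In bulk RNA a different share of cells with the plasmid and a different amount of RNA per cell cannot be told apart. No pair of replicates agreed within sampling noise, and each library was counted once.

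As a family, the mitoribosomal protein genes differed little between STING-OE and NC cells. All 78 passed the filter on low counts, and MRPL15 was the 1 member called higher in STING-OE by edgeR (quasi-likelihood test, Benjamini-Hochberg adjustment over 21679 genes). Of all genes tested 0.604% were called higher and 0.89% were called lower, and 0 members were called lower. At an unadjusted p under 0.05 there were 10 members, 8 higher and 2 lower in STING-OE, or 12.8%, against 14.4% of all genes tested. The members' share of all counts was 0.3595%, 0.3435% and 0.3354% in STING-OE libraries 1, 2 and 3 and 0.3274%, 0.3382% and 0.3382% in NC libraries 1, 2 and 3. Summed over the 78 genes, the level was 3427 ± 135 CPM in STING-OE libraries and 3383 ± 50.3 CPM in NC libraries (SD, n = 3 each), a ratio of 1.013.

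The log2 fold changes of the members ran from -0.46 (MRPL53, treated on its own below) and otherwise from -0.28 (MRPL23) to 0.28 (MRPL15). Their median was 0.026, against 0.001 over all genes tested, with 48 members above 0 and 30 below it. The fitted change was under 1.1-fold for 66 members. Standard errors had a median of 0.066 on the log2 scale and reached 0.109 without MRPL53. The 95% interval of the change (t distribution, 4 degrees of freedom) lay within 1.5-fold in either direction for 77 of the 78 members, all but MRPL53. In 11 members every STING-OE library was above every NC library (10.1% of all genes tested), and in 5 every STING-OE library was below every NC library (9.73% of all genes tested). The remaining 62 members overlapped between the groups.

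**Figure D1:**
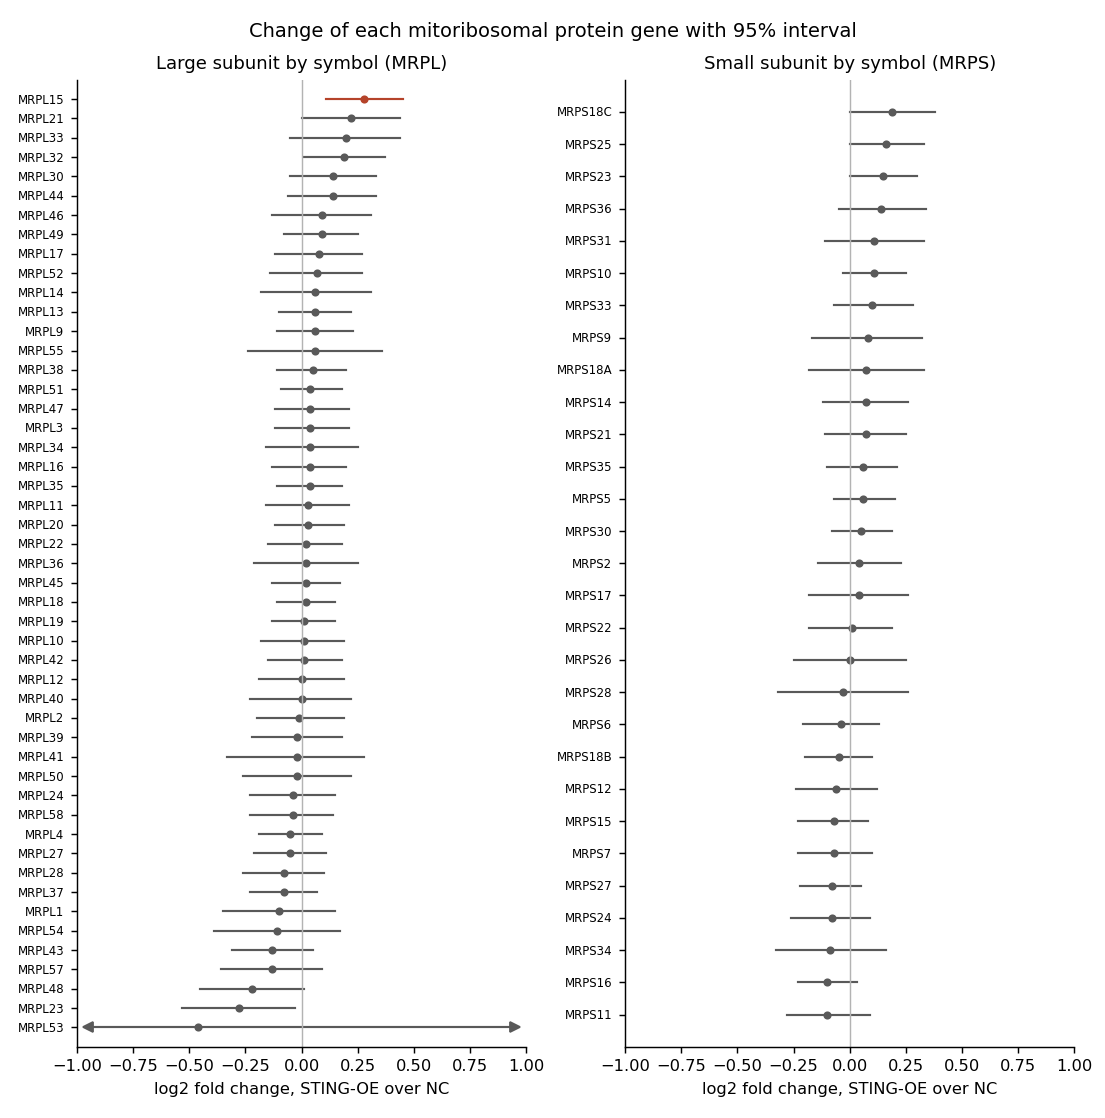
Log2 fold change (STING-OE over NC, horizontal axis) of each of the 49 MRPL genes (left) and 29 MRPS genes (right), ordered by size; points are edgeR estimates and bars 95% intervals, with the 1 called member, MRPL15, in red. All intervals but that of MRPL53, which leaves the axis on both sides and is marked by arrows, lie within 1.5-fold of no change.

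The order of the members by level was similar in both groups. Per length, the highest member in NC cells was MRPL18, a protein of the central protuberance, with 65.4 ± 1.51 FPKM in STING-OE and 63.4 ± 1.34 FPKM in NC (SD, n = 3 each). MRPL12, the stalk protein that recruits translation factors, followed with 59.5 ± 5.14 FPKM in STING-OE and 58.7 ± 2.88 FPKM in NC. Both stood apart from the next member in the NC libraries. MRPL51 (48.3 ± 0.135 FPKM in STING-OE, 46.1 ± 1.31 FPKM in NC) and MRPL37 (42.7 ± 1.87 FPKM in STING-OE, 44.5 ± 2.1 FPKM in NC), both specific to mitochondria, came next and overlapped each other in the NC libraries.

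The lowest level per length belonged to MRPL42, with 2.86 ± 0.0985 FPKM in STING-OE and 2.8 ± 0.19 FPKM in NC. MRPL46 had 3.58 ± 0.217 FPKM in STING-OE and 3.32 ± 0.329 FPKM in NC, MRPL48 had 3.41 ± 0.0379 FPKM in STING-OE and 3.93 ± 0.232 FPKM in NC, and MRPL50 had 4.08 ± 0.298 FPKM in STING-OE and 4.08 ± 0.156 FPKM in NC. All 4 are large-subunit proteins specific to mitochondria, and MRPL46 and MRPL48 sit in the central protuberance. The longest transcript of MRPL42 has 15582 bases, against a median of 1722 for the members. By counts MRPL42 was not low, with 50.4 ± 1.49 CPM in STING-OE and 50 ± 3.47 CPM in NC. The transcripts of MRPL46, MRPL48 and MRPL50 have 5561, 1922 and 3332 bases. The ranks by FPKM thus depend on the annotated lengths. The levels per length spanned 22.7-fold in NC cells, with 49 members between 10 and 50 FPKM. Across the 78 genes log2 mean FPKM in STING-OE and in NC had a Pearson correlation of 0.993, given as a description, since genes of 1 library share its depth and the genes' own lengths.

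**Figure D2:**
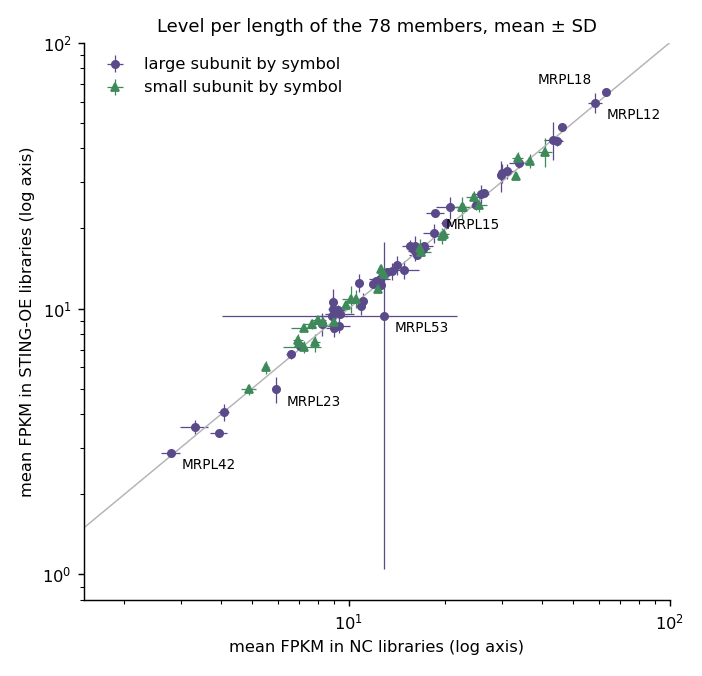
Mean FPKM of each of the 78 members in the STING-OE libraries (vertical, log axis) against the NC libraries (horizontal, log axis); bars are SDs over 3 libraries and the grey line marks equality. The members lie along the line over a 22.7-fold range in NC, and MRPL53 has the widest bars.

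MRPL15 (ENSG00000137547, the mitochondrial counterpart of bacterial ribosomal protein L15, a large-subunit protein) had 42.9, 44.5 and 43.6 CPM in STING-OE libraries 1, 2 and 3, against 37.5, 33.6 and 36.9 CPM in NC libraries 1, 2 and 3. All 3 STING-OE libraries were above all NC libraries. It rose by a log2 fold change of 0.28 (SE 0.06; 95% interval 0.11 to 0.45; edgeR adjusted p = 0.0307), which is 1.21-fold. No other tested gene model overlaps it, and its 1 named pseudogene had counts of 0.0334% of its own. The call was lost with limma-voom (adjusted p = 0.0688), on FPKM with limma (adjusted p = 0.144 and 0.134 at pseudocounts of 1 and 0.1), and in 5 of the 6 fits that left out 1 library. Those 5 adjusted p-values ran from 0.0859 without NC library 1 to 0.181 without NC library 2, with 0.0967 without NC library 3, 0.138 without STING-OE library 2 and 0.0949 without STING-OE library 3. Without STING-OE library 1 it was 0.0312.

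The 9 members that followed MRPL15 by p did not pass the adjusted threshold, and their values are given as measurements. MRPL23, at the exit of the tunnel through which the new chain leaves the ribosome, had 17.9, 14.0 and 15.8 CPM in STING-OE libraries 1, 2 and 3, against 19.0, 19.1 and 19.8 CPM in NC libraries 1, 2 and 3. Every STING-OE library was below every NC library (log2 fold change -0.28, SE 0.091, edgeR adjusted p = 0.143). Without STING-OE library 1 it passed the threshold (log2 fold change -0.37, edgeR adjusted p = 0.0373), and in no other fit tried.

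MRPL32, whose precursor is cut by the m-AAA protease of the inner membrane before it joins the large subunit, had 46.0, 47.8 and 41.2 CPM in STING-OE libraries, against 38.1, 40.8 and 39.6 CPM in NC libraries. The groups did not overlap (log2 fold change 0.19, SE 0.0638, edgeR adjusted p = 0.166), but STING-OE library 3 lay close to NC library 2. MRPL21, a large-subunit protein with a bacterial counterpart, had 36.1, 32.0 and 28.4 CPM in STING-OE libraries, against 26.6, 28.5 and 27.7 CPM in NC libraries, and the groups overlapped (log2 fold change 0.22, SE 0.0801, edgeR adjusted p = 0.201). With offsets for GC content and length it passed the threshold (log2 fold change 0.28, edgeR adjusted p = 0.0465). MRPL33, another large-subunit protein with a bacterial counterpart, had 43.1, 40.1 and 35.5 CPM in STING-OE libraries and 30.3, 36.1 and 37.4 CPM in NC libraries. Its groups overlapped (log2 fold change 0.20, SE 0.0877, edgeR adjusted p = 0.329).

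MRPL48, of the central protuberance, had 14.3, 13.8 and 14.2 CPM in STING-OE libraries, against 17.1, 16.7 and 15.5 CPM in NC libraries. The groups did not overlap (log2 fold change -0.22, SE 0.0834, edgeR adjusted p = 0.216). Its promoter above holds none of the 3 marked motifs. That of MRPL32 holds the YY1 letters, but past the start of PSMA2.

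The 4 small-subunit members in this set were all above their NC libraries in every STING-OE library. MRPS18C, 1 of 3 human homologues of bacterial protein S18, had 44.0, 42.9 and 45.3 CPM in STING-OE libraries and 34.4, 39.7 and 41.7 CPM in NC libraries (log2 fold change 0.19, SE 0.0689, edgeR adjusted p = 0.193). MRPS23, which is specific to mitochondria, had 63.6, 61.6 and 61.1 CPM in STING-OE libraries and 58.3, 53.6 and 56.1 CPM in NC libraries (log2 fold change 0.15, SE 0.0526, edgeR adjusted p = 0.18). The lowest STING-OE library of MRPS18C was 42.9 CPM and its highest NC library 41.7 CPM, so the gap between the groups was narrow. MRPS25, also specific to mitochondria, had 52.2, 51.0 and 48.2 CPM in STING-OE libraries and 45.5, 47.4 and 42.4 CPM in NC libraries (log2 fold change 0.16, SE 0.0592, edgeR adjusted p = 0.202). MRPS10, a protein of the small-subunit head, had 82.7, 86.7 and 79.3 CPM in STING-OE libraries and 79.2, 75.1 and 76.5 CPM in NC libraries (log2 fold change 0.11, SE 0.0505, edgeR adjusted p = 0.335). A model on the opposite strand covers 43.7% of MRPS18C (ABRAXAS1), with 25.3% of its counts. NR2C2, also on the opposite strand, covers 3.89% of MRPS25 and has 2.92 times its counts.

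**Figure D3:**
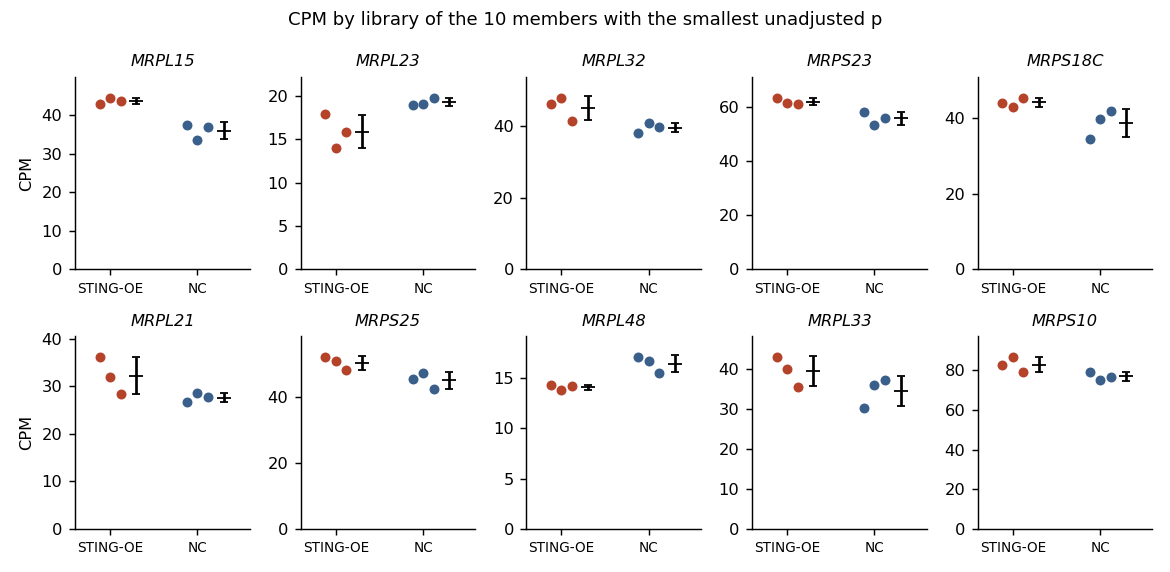
CPM in each library of the 10 members with the smallest unadjusted p, STING-OE (red, left) and NC (blue, right) in each panel, with the mean ± SD over 3 libraries beside the points; axes start at 0. MRPL15 is the 1 called member, and MRPL21 and MRPL33 are the 2 whose groups overlap.

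By place in the ribosome, 0 of the members described next passed the threshold. In the stalks, of which 1 (MRPL1) helps used tRNAs leave and the other (MRPL10, MRPL11 and MRPL12) engages translation factors, MRPL1, MRPL10, MRPL11 and MRPL12 had log2 fold changes of -0.10, 0.01, 0.03 and 0.00, and all overlapped between the groups. MRPL12, which also binds the mitochondrial RNA polymerase, had 71.7, 60.0 and 62.0 CPM in STING-OE libraries and 60.1, 66.4 and 67.3 CPM in NC libraries. Near the peptidyl transferase centre, where amino acids are joined, MRPL2, MRPL3, MRPL4 and MRPL16 had log2 fold changes of -0.01, 0.04, -0.05 and 0.04. Of these MRPL4 did not overlap between the groups, with 55.0, 53.3 and 54.1 CPM in STING-OE libraries and 55.3, 57.0 and 56.0 CPM in NC libraries (edgeR adjusted p = 0.735).

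Around the exit tunnel 7 members had a median log2 fold change of 0.021, from -0.28 (MRPL23) to 0.14 (MRPL44). MRPL45, which holds the ribosome to the inner membrane, had 50.5, 49.2 and 49.1 CPM in STING-OE libraries and 48.0, 50.3 and 48.3 CPM in NC libraries (log2 fold change 0.02, SE 0.0527). MRPL17, MRPL22, MRPL24 and MRPL47 had log2 fold changes of 0.08, 0.02, -0.04 and 0.04, and each overlapped between the groups. MRPL22 carries both the NRF1 and the YY1 letters in the promoter shown above. In the central protuberance, which contacts tRNAs and the small subunit, MRPL18, MRPL27, MRPL38, MRPL40 and MRPL46 had log2 fold changes of 0.02, -0.05, 0.05, -0.00 and 0.09, and MRPL48 had -0.22. MRPL58 (also ICT1), a peptidyl-tRNA hydrolase that frees stalled ribosomes and is built into the large subunit, had 30.5, 27.3 and 29.7 CPM in STING-OE libraries and 29.6, 29.7 and 30.9 CPM in NC libraries (log2 fold change -0.04, SE 0.0657).

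The 29 MRPS genes had a median log2 fold change of 0.044 and a range of -0.10 to 0.19, and the 49 MRPL genes had a median of 0.023. Of the MRPS genes 8 were above NC in every STING-OE library and 2 were below (27.6% and 6.9%), and of the MRPL genes 3 were above and 3 below (6.12% each), against 10.1% above and 9.73% below over all genes tested. The difference between the subunits was not tested. At the decoding centre, which reads the codon, MRPS12 and MRPS5 had log2 fold changes of -0.06 and 0.06. MRPS5 had 67.1, 66.7 and 66.8 CPM in STING-OE libraries and 62.7, 66.2 and 63.1 CPM in NC libraries, without overlap (edgeR adjusted p = 0.63). Of the other 2 homologues of S18, MRPS18A had a log2 fold change of 0.07 and MRPS18B of -0.05. In structures of the mitoribosome MRPS18A and MRPS30 sit in the large subunit in spite of their symbols. MRPS30 had 70.4, 69.2 and 66.0 CPM in STING-OE libraries and 65.2, 67.2 and 65.6 CPM in NC libraries (log2 fold change 0.05, SE 0.0494). MRPS36, known since as a component of the oxoglutarate dehydrogenase complex and not of the ribosome, had 24.4, 22.3 and 24.3 CPM in STING-OE libraries and 20.8, 21.6 and 21.6 CPM in NC libraries (log2 fold change 0.14, SE 0.0718, edgeR adjusted p = 0.379).

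The other 4 MRPS genes whose groups did not overlap, named after their values were seen, differed by little. MRPS16, with a bacterial counterpart, had 97.9, 92.8 and 92.6 CPM in STING-OE libraries and 99.1, 102 and 102 CPM in NC libraries (log2 fold change -0.10, SE 0.0467, edgeR adjusted p = 0.365). MRPS27, specific to mitochondria, had 85.4, 79.1 and 84.1 CPM in STING-OE libraries and 86.9, 87.3 and 89.3 CPM in NC libraries (log2 fold change -0.08, SE 0.0485, edgeR adjusted p = 0.48). These were the 2 MRPS genes below NC in every STING-OE library. MRPS14, of the small-subunit head, had 24.5, 24.2 and 25.5 CPM in STING-OE libraries and 22.7, 23.8 and 24.2 CPM in NC libraries, where the lowest STING-OE and the highest NC library met at 24.2 CPM after rounding. MRPS31, specific to mitochondria, had 17.6, 18.4 and 16.9 CPM in STING-OE libraries and 16.7, 15.9 and 16.4 CPM in NC libraries (log2 fold change 0.11, SE 0.0787, edgeR adjusted p = 0.596). The members not named one by one had log2 fold changes within the range given above, overlapped between the groups and were not called.

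Grouped by origin, 22 of the 29 MRPL genes with a bacterial counterpart had a log2 fold change above 0 (median 0.035), and 8 of the 19 MRPL genes specific to mitochondria (median -0.020). Among the MRPS genes it was 9 of the 18 with a bacterial counterpart (median 0.006) and 8 of the 11 specific to mitochondria (median 0.058). The order of the 2 origins was thus opposite between the MRPL and the MRPS genes. These groups are by symbol, and the 11 MRPS genes specific to mitochondria include MRPS30 and MRPS36, which are not of the small subunit. The differences between the origins were not tested.

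Members were often highest in the same library. STING-OE library 1 was the highest of the 6 libraries for 36 of the 78 members (46.2%), against 17.1% of all genes tested and 19% of the 10691 tested genes at least as abundant as the lowest member. It was the lowest library for 1 member. The median over members of log2 CPM minus the gene's own mean was 0.071, -0.019 and -0.030 in STING-OE libraries 1, 2 and 3 and -0.040, 0.006 and 0.012 in NC libraries 1, 2 and 3. The medians of STING-OE libraries 2 and 3 thus lay between those of the NC libraries. Without STING-OE library 1 the median log2 fold change of the members was -0.009, and for large- and small-subunit genes it was -0.011 and 0.013.

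**Figure D4:**
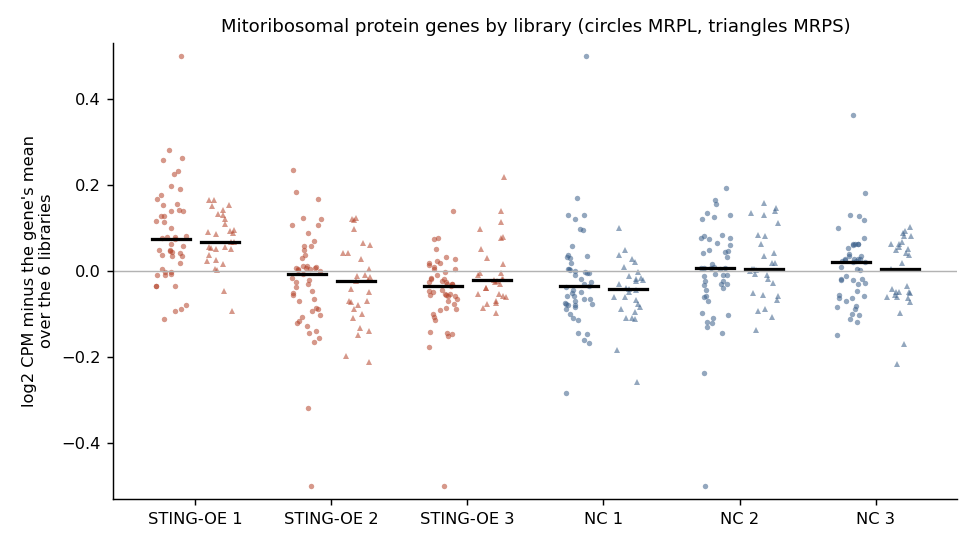
Log2 CPM of each member minus its mean over the 6 libraries (vertical axis), by library, with STING-OE in red on the left and NC in blue on the right; circles are MRPL genes, triangles MRPS genes and black bars medians, and values of MRPL53 past 0.5 in either direction are drawn at 0.5. STING-OE library 1 has the highest medians for both subunits, 0.075 for MRPL and 0.066 for MRPS genes.

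The transcripts of the members had a median GC content of 47.7% (all genes tested 47.9%), with a range from 33.5% to 71.9%, and a median length of 1722 bases (all genes tested 2831 bases). In the 26 members with the highest GC content the median deviations were 0.128, -0.069 and -0.064 in STING-OE libraries 1, 2 and 3 and -0.068, 0.047 and 0.032 in NC libraries 1, 2 and 3. In the 26 members with the lowest GC content they were 0.036, 0.045 and -0.006 in STING-OE libraries and -0.016, -0.031 and -0.022 in NC libraries. The spread between libraries of 1 group was thus wider in the GC-rich members. Across the 78 members the log2 fold change had a Spearman correlation with GC content of -0.32, and across 21213 genes of -0.19. Over all genes the slope of log2 level on GC content, per 10 percentage points, was 0.0278, -0.063 and -0.0338 in STING-OE libraries and 0.0157, 0.0414 and 0.0119 in NC libraries. The part of GC content in the members' changes was not tested beyond a fit with GC and length offsets, in which their median was 0.023 and MRPL15 and MRPL21 were called higher.

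MRPL53, a large-subunit protein specific to mitochondria, was the member with the widest spread, and is named here after its values were seen. Its model lies at chr2:74471982-74472687 (minus strand, GRCh38). It had 14.2, 3.31 and 3.46 CPM in STING-OE libraries 1, 2 and 3, against 16.6, 3.76 and 8.55 CPM in NC libraries 1, 2 and 3. Each group held both high and low libraries (log2 fold change -0.46, SE 0.915; 95% interval -3.00 to 2.08). Its log2 fold change was -1.51 without STING-OE library 1 and 0.18 without NC library 1. Of its 706 bases 702 (99.4%) lie inside the model of CCDC142 on the same strand. CCDC142 had 21.8, 27.5 and 28.7 CPM in STING-OE libraries and 18.4, 28.3 and 26.2 CPM in NC libraries, and was lowest in the libraries in which MRPL53 was highest. The sum of both was 32.9 ± 2.69 CPM in STING-OE libraries and 34.0 ± 1.61 CPM in NC libraries (SD, n = 3 each; exact permutation p = 0.7, two-sided). Over the 6 libraries its coefficient of variation was 6.16%, against 70.7% for MRPL53 alone. How reads were shared between the 2 models is not given in the sources used here, so the level of MRPL53 is uncertain.

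**Figure D5:**
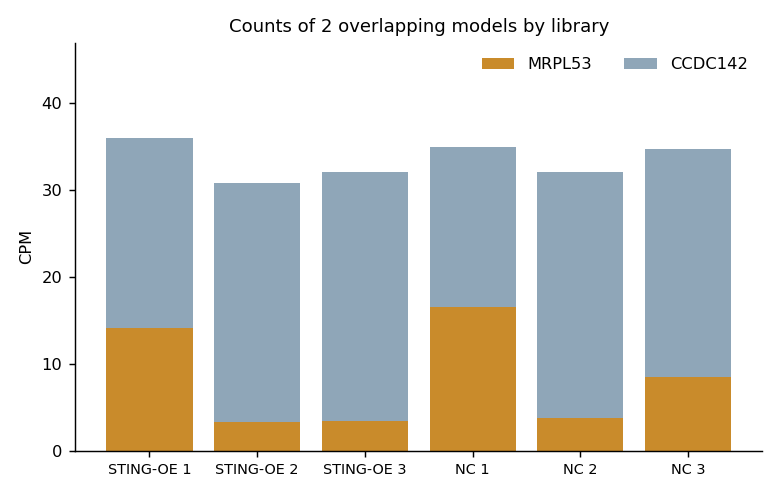
CPM of MRPL53 (orange) and of CCDC142 (blue-grey), stacked, in STING-OE libraries 1 to 3 (left) and NC libraries 1 to 3 (right). MRPL53 ranges between 3.31 and 16.6 CPM while the stacked sums stay between 30.8 and 36 CPM.

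Overlap and copies touch other members as well. A tested model overlaps 36 of the 78 members, and for 11 of them such a model has the higher mean count. The 42 members with no such overlap had the same median log2 fold change, 0.026. On the same strand, NIPSNAP2 covers 100% of the model of MRPS17 and has 1.9 times its counts. SLC5A3 covers 46.8% of MRPS6, with 3.13 times its counts, and PGAP6 covers 11.6% of MRPL28, with 1.46 times its counts. How reads were shared is not given for these models either, so the levels of MRPS17, MRPS6 and MRPL28 are uncertain. MRPL51 had 72.6, 71.4 and 72.1 CPM in STING-OE libraries and 70.8, 70.6 and 68.2 CPM in NC libraries, and 24.8% of its model lies on the opposite strand of NCAPD2. NCAPD2 had 252, 250 and 254 CPM in STING-OE libraries and 285, 270 and 276 CPM in NC libraries, and the strand setting of the counts is not given. Named pseudogenes, 34 in all, were listed for 25 members. Their counts came to 64% of those of MRPS31 and 7.39% of those of MRPL45, and to under 5% for the other members, so the level of MRPS31 is uncertain.

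Of the members 20 start within 1000 bases of a gene transcribed the other way, in 20 pairs. MRPS11 and MRPL46 are such a pair of 2 members, with starts 64 bases apart by the deposited coordinates. MRPS11 had 48.4, 40.7 and 46.5 CPM in STING-OE libraries and 46.1, 49.5 and 49.6 CPM in NC libraries. MRPL46 had 25.2, 25.7 and 23.1 CPM in STING-OE libraries and 25.5, 22.0 and 22.1 CPM in NC libraries. Both overlapped between the groups, with log2 fold changes of -0.10 and 0.09. In 10 of the 20 pairs both genes had the same sign.

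Among the other nuclear genes of mitochondrial translation, taken from lists of known factors, 0 passed the threshold in the edgeR test, and MTG2, TUFM and GARS1 passed it in some alternatives. The 5 tested mitoribosomal proteins with other symbols (DAP3, a GTP-binding small-subunit protein, PTCD3, CHCHD1, AURKAIP1 and GADD45GIP1) had log2 fold changes of 0.04, 0.06, -0.11, -0.08 and 0.02, and 0 of 5 were called. Of 29 tested factors of mitoribosome assembly and rRNA modification 0 were called (median 0.018, with 4 or 13.8% at an unadjusted p under 0.05, against 14.4% of all genes tested). The smallest p there belonged to MTG2, an assembly GTPase (log2 fold change 0.15, edgeR adjusted p = 0.188, and 0.0392 with GC and length offsets), and RPUSD3, of the pseudouridine synthase family (-0.18, edgeR adjusted p = 0.195). Of 18 mitochondrial translation factors 0 were called (median 0.027, with 1 or 5.56% at an unadjusted p under 0.05). TUFM, the elongation factor that brings tRNAs to the mitoribosome, had 131, 118 and 123 CPM in STING-OE libraries and 141, 136 and 136 CPM in NC libraries (log2 fold change -0.15, SE 0.0497, edgeR adjusted p = 0.141). It passed the threshold with DESeq2 (adjusted p = 0.0435) and without STING-OE library 1 (edgeR adjusted p = 0.0303). MTRF1, a release factor, had a log2 fold change of 0.18 (edgeR adjusted p = 0.492).

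Of 22 mitochondrial aminoacyl-tRNA synthetases and related enzymes 0 were called (median 0.008, with 2 or 9.09% at an unadjusted p under 0.05). GARS1, the glycyl-tRNA synthetase of cytosol and mitochondria, had 286, 311 and 302 CPM in STING-OE libraries and 269, 261 and 270 CPM in NC libraries (log2 fold change 0.17, SE 0.0451, edgeR adjusted p = 0.0784). It passed the threshold with total counts (edgeR adjusted p = 0.0413), at a mean of at least 1 CPM (0.0387), with GC and length offsets (0.0475), without STING-OE library 1 (0.0134) and with DESeq2 (0.00322). QRSL1, a subunit of the mitochondrial glutamyl-tRNA amidotransferase, had a log2 fold change of 0.14 (edgeR adjusted p = 0.305). For comparison, 77 tested genes of the cytoplasmic ribosome had a median of -0.006. Of these 0 were called higher and 1 lower, against 0.604% and 0.89% of all genes tested. At an unadjusted p under 0.05 there were 14 (18.2%), 3 higher and 11 lower in STING-OE, against 14.4% of all genes tested.

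The rRNAs that the member proteins bind are encoded by mitochondrial DNA and stood lower in STING-OE libraries. MT-RNR1, the small-subunit rRNA, had 791, 677 and 770 CPM in STING-OE libraries 1, 2 and 3, against 946, 884 and 1036 CPM in NC libraries 1, 2 and 3, and fell by 0.36 on the log2 scale (SE 0.0694, edgeR adjusted p = 0.0374). Its call was lost in 5 of the 6 fits that left out 1 library (adjusted p from 0.0589 to 0.125, and 0.0258 without NC library 2), with GC and length offsets (edgeR adjusted p = 0.143) and on FPKM with limma (0.227 and 0.216 at pseudocounts of 1 and 0.1). MT-RNR2, the large-subunit rRNA, had 3608, 3461 and 3796 CPM in STING-OE libraries and 4133, 4000 and 4124 CPM in NC libraries (log2 fold change -0.17, SE 0.0425, edgeR adjusted p = 0.0529). It passed the threshold with upper-quartile scaling (edgeR adjusted p = 0.0397), no filter (0.0252), a mean of at least 1 CPM (0.0253) and GC and length offsets (0.00983). It also passed with these offsets and the replicate number as a block (edgeR adjusted p = 0.0419). The same held without STING-OE library 1 (edgeR adjusted p = 0.0347) and with DESeq2 (adjusted p = 0.000805). MT-RNR2 did not pass with RLE scaling (edgeR adjusted p = 0.0525), total counts (0.0787) or the block alone (0.176). It also did not pass in the other fits that left out 1 library (edgeR adjusted p from 0.0546 to 0.229). Nor did it pass with limma-voom (adjusted p = 0.055) or with limma on FPKM (0.65 and 0.631 at pseudocounts of 1 and 0.1). The groups of both rRNAs did not overlap, with every STING-OE library below every NC library, as in 9.73% of all genes tested. Of the 13 mitochondrial mRNAs, which the mitoribosome translates, 6 were called lower and 0 higher. Of all genes tested 0.89% were called lower and 0.604% higher. The median log2 fold change of the 13 mRNAs was -0.155. Whether their calls held in the alternatives is not given here. The labels do not say how rRNA was removed or mRNA selected, and fewer mitochondrial transcripts per cell and a change in what the library preparation captured cannot be told apart.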

How the data were processed

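Bulk RNA from 6 libraries was measured. Trizol extraction and the Illumina TruSeq kit were used, per the labels' protocols. Per the submitters' processing notes Bowtie 0.12.2 was used. The sources used here do not give its role, nor the counter, annotation, build or strandedness. Per the file headers, the authors deposited for each Ensembl gene a read count (whole numbers) and an FPKM value. Coordinates are called GRCh38 because the start or end of 66 of the 78 members matched GENCODE v29 to within 1 base.

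Differences in counts were tested with R 4.3.3 and edgeR 4.0.16 (filterByExpr, TMM, robust quasi-likelihood fit without covariates, two-sided test, Benjamini-Hochberg adjustment over all genes tested, threshold 0.05). Log2 fold changes are STING-OE over NC. Standard errors are the log2 fold change over the square root of F and so approximate, as are the intervals made from them. FPKM values served for levels per length and for an alternative test with limma 3.58.1. GC content and length are those of the longest GENCODE v29 transcript. Single sums were compared by an exact permutation test, whose smallest p is 0.1 with 3 against 3 libraries.

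The members, the lists and the tests were chosen with earlier results of these data known. Genes named are those past the threshold, the 10 members with the smallest p, the 4 highest and 4 lowest by FPKM, the members of defined ribosomal regions, MRPS30, MRPS36 and the leading genes of the other lists. Chosen after values were seen were MRPS14, MRPS16, MRPS27, MRPS31, the MRPS11 and MRPL46 pair, MRPL53 and its sum with CCDC142, the promoters shown, the GC groups, the counts of highest libraries, the overlap, pseudogene and neighbour summaries, and the lists of mitochondrial mRNAs and cytoplasmic ribosomal genes.

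The edgeR procedure was tested on simulated counts, in which large changes were recovered more often than small ones. How often it recovers changes as small as those of most members was not tested. The first simulation drew the spread of each gene from its own estimate and gave more false calls than the threshold implies. A second one, made after that result was seen, drew it from the trend over all genes and gave fewer. The procedure was left as it was, and calls on these libraries may hold more false ones than the threshold implies.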

Additional observations from a re-analysis of the deposited data

How the results depend on the processing

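The number of members called higher, 1 in the edgeR test, was 2 with GC content and length offsets, and 0 with limma-voom and with limma on FPKM at either pseudocount; it ran from 0 to 1 when 1 library was left out. Members called lower ran from 0 to 1 when 1 library was left out, the 1 being MRPL23 without STING-OE library 1. With the replicate number as a block 0 members were called higher, also with GC offsets, and MRPL15 had an adjusted p of 0.0921 and 0.103. Libraries with the same number had correlations of 0.160, 0.102 and 0.023, not every library correlated best with its own number, and no label says what a number shares, so the numbers were not taken as pairing. Calls over all genes, 324 in the edgeR test, were 120 with the block, 90 with the block and GC offsets, 489 with GC offsets, 673 at a mean of at least 1 CPM, 922 with DESeq2, 137 with limma-voom, 5 and 9 with limma on FPKM, and 60 to 741 when 1 library was left out. The context lists, counted without the cell type markers, had 1 call in the edgeR test. They had 2 with upper-quartile scaling, total counts, no filter, or block with GC offsets, and 3 at 1 CPM or with GC offsets. They had 4 with DESeq2, 0 with FPKM at either pseudocount, and 0 to 3 when 1 library was left out. The log2 fold change of STING1 was 0.55 and 0.61 on FPKM with pseudocounts of 1 and 0.1, past no threshold (limma adjusted p = 0.12 and 0.101). The members' median stayed within 1 SD of the library medians (0.044) in every alternative, from -0.009 to 0.056; total counts moved the median of all genes to 0.031. The sign of the change was the same in every alternative for 44 members and changed at least once for 34, none of them called in a fit where it changed. With 3 libraries a group, members at 1.14- to 1.16-fold (MRPL32, MRPL33 and MRPL21) were not called in the edgeR test. The smallest change that this test could call was not determined, so a member not called may still have changed.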
